A study of Mus musculus with 8 samples.

Results

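The genes described here are 10 feedback genes of the FGF-ERK pathway, Dusp6, Dusp4, Spry1, Spry2, Spry4, Spred1, Spred2, Etv4, Etv5 and Il17rd, out of 21951 protein-coding genes in the GENCODE M21 annotation of the mouse genome. They were chosen by name as known targets and inhibitors of the pathway and not by their peaks, although earlier results of these data were known. For each gene, the peaks of 8 ChIP-seq libraries were collected in its start window, from 5 kb upstream to 1 kb downstream of any annotated transcript start, and in the rest of its gene body. ChIP-seq pulls down a protein together with the DNA fixed to it and sequences that DNA, and a peak is a place with more fragments than its surroundings.

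All libraries came from E14Tg2a, a line of mouse embryonic stem cells (ESCs), at passages 37 to 40. FGFR1, RXR and Nur77 were each precipitated from ESCs kept in LIF (leukemia inhibitory factor), which holds them pluripotent, and from neuronal cells (NCs) made by treating LIF-free monolayers with 1 µM retinoic acid (RA) for 48 h, while the histone variant H3.3 was precipitated from RA-treated NCs only. FGFR1 in RA had 2 libraries, called replicates 1 and 2 below, and each other group had 1. Each chromatin sample was pooled from several plates of cells, nothing in the labels says that the FGFR1 replicates were separate cultures, and peak lists cannot show whether the cells carried the markers of ESCs or NCs.

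FGF ligands bind receptors such as FGFR1 at the cell surface, and the signal runs through Ras, Raf and MEK to the kinase ERK. ERK then induces, through transcription factors, a set of genes whose products shut the same cascade down: phosphatases of the DUSP family remove phosphate from ERK, Sprouty and Spred proteins act at Ras and Raf, and Il17rd (also called Sef) acts at the receptor and at MEK. In ESCs autocrine Fgf4 drives ERK and primes the cells to leave self-renewal, and these genes are commonly read as a record of ERK activity. FGFR1 also occurs in the nucleus, RXR is the partner with which retinoic acid receptors bind DNA, and Nur77 is an orphan nuclear receptor that can pair with RXR.

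The DNA under the peaks on which the results turn is given first, in mm10 (GRCm38) coordinates, written 5′ to 3′ along the strand of the gene. The promoters of Dusp6, Etv5 and Il17rd are shown because they lie under the 3 peaks of FGFR1 RA replicate 2 with the highest −log10 p. They come from the RefSeq promoter table for GRCm38.p6, with exonic bases left out, and 7 of the 10 genes had a promoter in that table. Capitals mark the bases within 50 bp of the summit of the FGFR1 RA replicate 2 peak for Dusp6, and the bases covered by that peak for Etv5 and Il17rd.
Dusp6 promoter, chr10:99262981-99263230, plus strand: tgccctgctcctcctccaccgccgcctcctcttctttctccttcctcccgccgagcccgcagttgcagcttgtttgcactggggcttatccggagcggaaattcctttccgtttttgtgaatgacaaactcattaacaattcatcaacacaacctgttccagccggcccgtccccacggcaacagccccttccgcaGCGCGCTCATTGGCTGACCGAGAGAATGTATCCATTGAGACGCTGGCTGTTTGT
Etv5 promoter, chr16:22439720-22439820, minus strand: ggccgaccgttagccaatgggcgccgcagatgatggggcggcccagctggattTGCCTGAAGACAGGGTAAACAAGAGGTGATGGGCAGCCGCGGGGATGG
Il17rd promoter, chr14:27038751-27038940, plus strand: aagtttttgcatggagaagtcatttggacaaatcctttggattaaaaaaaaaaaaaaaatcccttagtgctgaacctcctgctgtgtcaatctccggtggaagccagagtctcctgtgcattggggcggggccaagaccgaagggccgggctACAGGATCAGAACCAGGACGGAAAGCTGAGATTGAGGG

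A further 3 stretches, read from the GRCm38 genome, show sites that several libraries shared. In the Spry2 upstream site, capitals mark the bases common to the peaks of FGFR1 RA replicate 2 and RXR in LIF. In the Spred2 intron, they mark the bases common to FGFR1 in LIF, both FGFR1 RA replicates and Nur77 in RA. In the Etv5 intron, which carried peaks of 7 libraries, they mark an unbroken run in which purines and pyrimidines alternate.
Spry2 upstream, chr14:105897293-105897490, minus strand: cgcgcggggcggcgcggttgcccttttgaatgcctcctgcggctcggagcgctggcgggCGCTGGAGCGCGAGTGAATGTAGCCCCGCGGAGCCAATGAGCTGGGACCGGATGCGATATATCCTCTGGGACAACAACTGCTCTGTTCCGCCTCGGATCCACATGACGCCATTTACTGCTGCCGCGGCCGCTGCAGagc
Spred2 intron, chr11:19925413-19925637, plus strand: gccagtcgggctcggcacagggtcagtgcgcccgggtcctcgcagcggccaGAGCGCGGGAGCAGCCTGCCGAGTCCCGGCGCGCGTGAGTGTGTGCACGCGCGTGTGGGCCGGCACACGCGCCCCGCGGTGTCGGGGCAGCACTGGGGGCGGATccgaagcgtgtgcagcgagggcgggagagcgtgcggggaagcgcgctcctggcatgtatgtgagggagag
Etv5 intron, chr16:22409443-22409597, minus strand: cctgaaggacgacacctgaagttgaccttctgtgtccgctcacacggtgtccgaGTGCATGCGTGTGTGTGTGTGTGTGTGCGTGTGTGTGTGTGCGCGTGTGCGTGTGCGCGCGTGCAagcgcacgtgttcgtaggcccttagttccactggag
The Spry2 and Spred2 stretches were rich in G and C, at 66.2% and 74.7%, and held 23 and 31 CpG pairs. The Etv5 stretch holds an alternating run of 65 bp.

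The 10 genes together carried 96 peaks, 61 in start windows and 35 elsewhere in gene bodies, and 53 of them lay within 1 kb of a transcript start. Each peak has a deposited fold, the ratio of fragments at its summit to the local background after 1 is added to both. It also has a −log10 p for summit against background. Where the background is low, the added 1 lowers the fold, so folds of libraries with unlike backgrounds are not on the same scale. After overlapping peaks of different libraries were merged, the 96 peaks fell into 54 sites, of which 33 carried a peak of 1 library only. The share of such sites over the whole lists was not counted. Every gene had a peak in its start window in FGFR1 RA replicate 2 and in RXR from LIF, while H3.3 had such a peak at Il17rd alone.

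**Figure D1:**
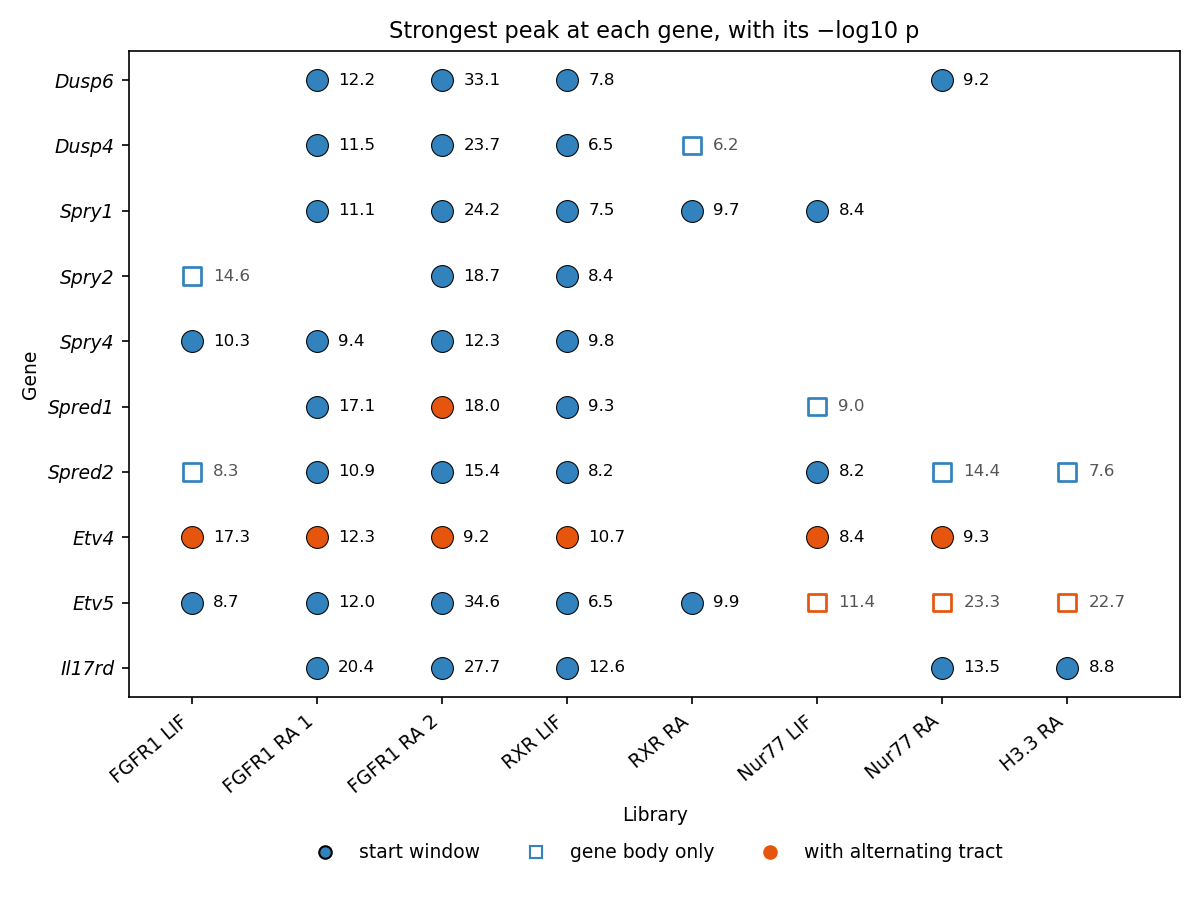
Genes (rows) by libraries (columns), where a filled circle stands for a peak in the start window, an open square for a peak elsewhere in the gene body only, orange for a peak with an alternating purine-pyrimidine tract, and the number for the −log10 p of the strongest such peak. The columns of FGFR1 RA replicate 2 and RXR LIF are filled for all 10 genes, and those of RXR RA and H3.3 RA hold 2 and 1 circles.

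The libraries differed in depth, and that bears on every count below. The lists give no number of sequenced fragments, but each peak's fold and −log10 p could be solved for the whole number of fragments at its summit. The weakest peak in a list rested on 4 to 8 fragments and the median peak on 9 to 12, except in FGFR1 RA replicate 2, where the median was 27. The genome-wide background was lowest for H3.3 at 1.27 fragments per kb, and it was 1.87 for RXR in RA against 7.09 for RXR in LIF. For FGFR1 it was 2.71 in LIF, 4.16 in RA replicate 1 and 6.78 in RA replicate 2, and for Nur77 it was 4.98 in LIF and 3.82 in RA. The lists held between 10634 peaks (H3.3) and 46137 peaks (FGFR1 RA replicate 1). A missing peak therefore says only that the gene did not reach the p limit of 1e-05 at that library's depth.

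**Figure D2:**
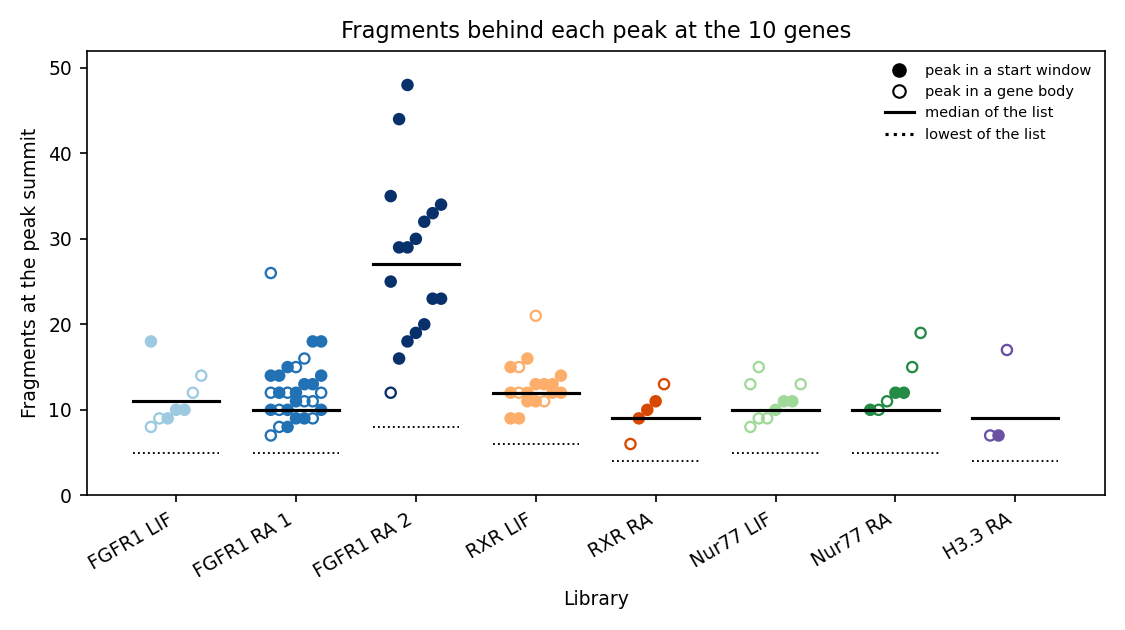
Fragments at the summit (vertical axis, number) of every peak at the 10 genes, by library, with filled points for start windows, open points for gene bodies, a solid line for the median and a dotted line for the lowest value of all peaks in that list. FGFR1 RA replicate 2 stands above the other libraries, with up to 48 fragments at Dusp6, and most other points lie between 7 and 16.

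FGFR1 had start-window peaks at few of the genes in LIF and at nearly all of them in RA. In LIF the genes were 3 of 10, Spry4, Etv4 and Etv5, and 19.7% of all protein-coding genes had such a peak. In RA they were 9 of 10 in replicate 1, all but Spry2, against 56.0% of coding genes, and 10 of 10 in replicate 2, against 51.5%. The RA mean was 9.5 ± 0.707 genes (SD, n = 2), 6.5 above the single LIF library, and both replicates lay above it. No test was made, because an exact permutation test of 1 library against 2 cannot give a one-sided p below 0.333. Both RA replicates had a peak at 9 of the 10 genes, against 42.6% of coding genes. At 6 of these, Dusp6, Dusp4, Spry1, Spred1, Spred2 and Il17rd, the LIF list had none in the start window, and 26.0% of coding genes showed that pattern. LIF was the shallowest of the FGFR1 libraries per kb, although its background within 1 fragment length, on which the caller's p rests, was 0.309 fragments against 0.300 and 1.04. With the fragments of all FGFR1 libraries scaled to an equal background of the latter kind, the genes numbered 3 in LIF, 9 in RA replicate 1 and 8 in RA replicate 2, where 19.7%, 56.0% and 42.8% of coding genes kept a peak. That scaling left LIF (factor 0.971) and RA replicate 1 (factor 1.0) nearly unchanged, so it did not even out their difference per kb. With each list held to its 10634 strongest peaks, they numbered 3, 2 and 9, where 18.0%, 20.7% and 44.7% of coding genes kept a peak. The count in replicate 1 was then below that in LIF and near the share of all coding genes, and the count in replicate 2 stayed above both.

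RXR showed the opposite count. In LIF all 10 genes had a start-window peak, against 46.4% of coding genes, and in RA only Spry1 and Etv5 did, against 26.2%. The other 8 genes had an RXR peak in LIF and none in RA, and 24.5% of all coding genes did so. Depth moved with this difference. The 14 RXR peaks behind the LIF count rested on 9 to 16 fragments each, and scaling the LIF library from its background of 0.568 fragments per fragment length to the 0.217 of the RA library left them 3 to 6 fragments. After that scaling 2 genes, Spred1 and Il17rd, kept a peak in LIF, the same number as in RA, and 28.0% of coding genes did. With 10634 peaks in each list the counts were 1 in LIF and 2 in RA, where 17.1% and 15.2% of coding genes kept a peak. The genes kept in LIF after the scaling were not Spry1 and Etv5, the genes with a peak in RA. That scaling (factor 0.382) evened out the background within 1 fragment length and not that per kb, which was 7.09 in LIF and 1.87 in RA. With 1 library in each state, whether RXR differed between LIF and RA at these genes was not tested, and its difference in count cannot be told apart from that in depth.

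Nur77 had start-window peaks at 3 genes in each state, near the share of all coding genes, 29.8% in LIF and 31.0% in RA. They were Spry1, Spred2 and Etv4 in LIF and Dusp6, Etv4 and Il17rd in RA, so that Etv4 was the gene common to both. H3.3 in RA had 1 gene, Il17rd, against 18.0% of coding genes.

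**Figure D3:**
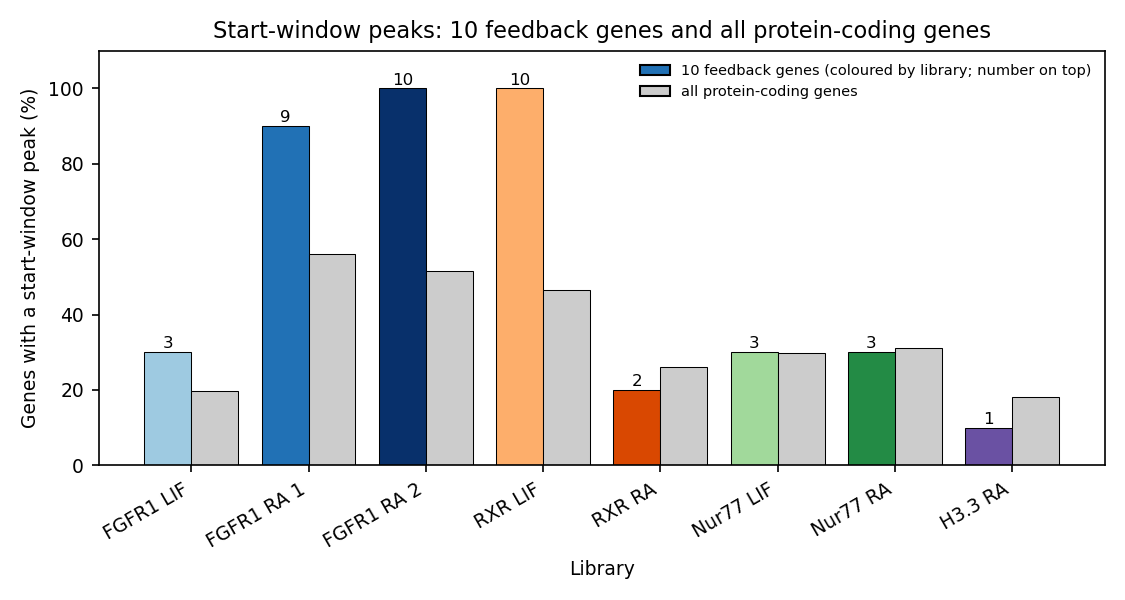
Percent of genes with a start-window peak in each library, for the 10 feedback genes (coloured bars, with the number of genes on top) and all 21951 protein-coding genes (grey bars). The coloured bar is far above the grey bar for both FGFR1 RA replicates and RXR LIF, and below it for RXR RA, Nur77 RA and H3.3 RA.

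Counting the gene body as well added most libraries at Spred2 and Etv5, 3 each, and none at Il17rd, although all of these are long genes. The genes span 4.26 kb (Dusp6) to 99.7 kb (Spred2), and the median protein-coding gene spans 17.4 kb. With start window and gene body together, FGFR1 had peaks at 5 genes in LIF, against 28.3% of coding genes, at 9 in RA replicate 1, against 64.6%, and at 10 in replicate 2, against 53.8%. RXR had them at 10 genes in LIF and 3 in RA, against 54.4% and 35.0%. Nur77 had them at 5 genes in each state, against 41.7% and 43.9%, and H3.3 at 3, against 26.5%. The genes added in this way were Spry2 and Spred2 for FGFR1 in LIF, Dusp4 for RXR in RA, Spred1 and Etv5 for Nur77 in LIF, and Spred2 and Etv5 for both Nur77 and H3.3 in RA.

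The FGFR1 RA replicates coincided at 6 of the 9 genes where both had a start-window peak, that is, their peaks had at least 1 bp in common. The genes were Dusp6, Dusp4, Spred2, Etv4, Etv5 and Il17rd. Among all coding genes with a start-window peak in both replicates, 83.7% shared a peak. Over the 10 genes replicate 1 had 29 peaks and replicate 2 had 17, and 6 of each overlapped, 20.7% of the first (95% Clopper-Pearson interval 7.99 to 39.7) and 35.3% of the second (14.2 to 61.7). The intervals cover counting error only and take the peaks as independent, although several lay in the same gene, as with 6 of replicate 1 in Spred2. No share of overlapping peaks over the whole lists is given beside them. The coinciding peaks had a −log10 p of 10.9 to 20.4 in replicate 1 and 9.20 to 34.6 in replicate 2. At Dusp4 the summits were 3 bp apart, at Etv4 17 bp, at Etv5 26 bp, at Il17rd 45 bp and at Spred2 61 bp. At Dusp6 they were 226 bp apart inside a broad peak of replicate 2. Where the replicates did not coincide, their nearest peaks were separated by 46 bp at Spred1, 179 bp at Spry1 and 741 bp at Spry4, and Spry2 had no peak of replicate 1 at all. The fragment length, read from the narrowest peak, was 72 bp in replicate 1 and 153 bp in replicate 2, and the median peak was 89 bp and 311 bp wide.

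Dusp6 encodes the cytoplasmic phosphatase that removes phosphate from ERK and is a standard reporter of FGF signalling. The gene (ENSMUSG00000019960.8) lies at chr10:99263231-99267489 on the plus strand. FGFR1 had no peak there in LIF. In RA replicate 2 it had a peak whose summit was 4 bp upstream of the gene start, in the capitals of the Dusp6 promoter above, with a fold of 9.06, a −log10 p of 33.1 and 48 fragments, the most of any peak at the 10 genes. Replicate 1 had no peak at the start. The replicates coincided further upstream, where replicate 1 had a peak with its summit 1221 bp from the start (fold 7.28, −log10 p 12.2) and replicate 2 a wider peak with its summit at 1447 bp (fold 6.08, −log10 p 17.5). The other Dusp6 peaks lay in coding sequence: FGFR1 RA replicate 1 at 653 bp past the start (fold 5.21, −log10 p 7.54) overlapped RXR in LIF at 721 bp (fold 5.02, −log10 p 7.82), and Nur77 in RA stood apart at 545 bp (fold 6.25, −log10 p 9.22). RXR in RA, Nur77 in LIF and H3.3 had no peak at Dusp6.

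Dusp4, a nuclear phosphatase for ERK and related kinases, is at chr8:34807297-34819894 on the plus strand (ENSMUSG00000031530.6). FGFR1 had no peak in LIF, and the RA replicates met in the 5′ untranslated exon, 89 bp past the start in replicate 1 (fold 6.63, −log10 p 11.5, 15 fragments) and 86 bp past it in replicate 2 (fold 8.34, −log10 p 23.7, 34 fragments). This was the closest agreement of summits between the replicates at any of the genes. Each replicate had further peaks of its own. Replicate 1 had summits 2299 bp upstream (−log10 p 7.48) and 638 bp downstream in coding sequence (−log10 p 9.21), the latter overlapping the RXR peak from LIF at 549 bp (fold 4.24, −log10 p 6.53). Replicate 2 had a peak 245 bp upstream (fold 5.72, −log10 p 13.0). RXR in RA had a weak peak of 6 fragments in coding sequence, 11223 bp from the start (fold 4.77, −log10 p 6.20). Nur77 and H3.3 had none.

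Sprouty proteins are induced by receptor tyrosine kinases and block the route from the receptor to Raf. Spry1 (ENSMUSG00000037211.12, chr3:37639947-37644598, plus strand) held peaks of 5 libraries, most of them in its 5′ untranslated exon. FGFR1 RA replicate 2 peaked 16 bp upstream of the start, with a fold of 10.0, a −log10 p of 24.2 and 29 fragments. Replicate 1 peaked 404 bp downstream instead (fold 7.03, −log10 p 11.1), then at 1129 bp in an intron (−log10 p 8.43) and most strongly at 2983 bp in coding sequence (fold 8.23, −log10 p 14.1), and none of these met the replicate 2 peak. The nuclear receptors crowded into the same exon. RXR in RA had summits at 304 bp (fold 6.40, −log10 p 9.73), where it overlapped FGFR1 RA replicate 1, and 584 bp (fold 5.87, −log10 p 8.59), RXR in LIF at 479 bp (fold 5.03, −log10 p 7.53) and Nur77 in LIF at 546 bp (fold 5.73, −log10 p 8.37). The last 3 of these overlapped one another, so that Spry1 had overlapping RXR peaks in both states. A start of Gm42922, an annotated transcript on the other strand with the GENCODE type TEC, lies within 1 kb of these peaks, except for that at 2983 bp, and the peaks cannot be assigned to either gene by position.

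Spry2 (ENSMUSG00000022114.5, chr14:105891947-105896819, minus strand) had the fewest peaks, 4. FGFR1 RA replicate 2 had a peak 569 bp upstream (fold 7.20, −log10 p 18.7, 29 fragments), and the RXR peak from LIF, 600 bp upstream (fold 5.17, −log10 p 8.38, 13 fragments), lay wholly inside it. These are the capitals of the Spry2 sequence above. Replicate 2 also peaked 2132 bp upstream (fold 5.14, −log10 p 10.4), and FGFR1 in LIF peaked in coding sequence, 3626 bp past the start (fold 8.77, −log10 p 14.6). That was the highest fold of FGFR1 in LIF at any of the genes other than Etv4, and neither RA replicate had a peak there.

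Spry4 (ENSMUSG00000024427.7, chr18:38586247-38601415, minus strand) was a gene where FGFR1 was at the start in LIF. In LIF its summits lay 85 bp downstream of the start, in the 5′ untranslated exon (fold 6.80, −log10 p 10.1), and 356 bp upstream (fold 6.89, −log10 p 10.3). In RA replicate 2 peaked at 104 bp (fold 5.97, −log10 p 12.3), over the first of the LIF peaks. RXR in LIF peaked at 75 bp (fold 5.34, −log10 p 8.66) in the same exon. Replicate 1 lacked this site. It peaked 790 bp upstream (fold 6.35, −log10 p 9.38), where RXR in LIF had another summit at 800 bp (fold 5.82, −log10 p 9.78), and the same libraries met again in coding sequence, at 11517 bp (−log10 p 10.7) and 11473 bp (−log10 p 12.2) past the start. RXR in LIF had a further peak at 11101 bp (−log10 p 7.84), and RXR in RA, Nur77 and H3.3 had none at the gene. The starts of AC133601.1, a long intergenic RNA on the other strand, lie within 1 kb of the peaks around the Spry4 start.

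**Figure D4:**
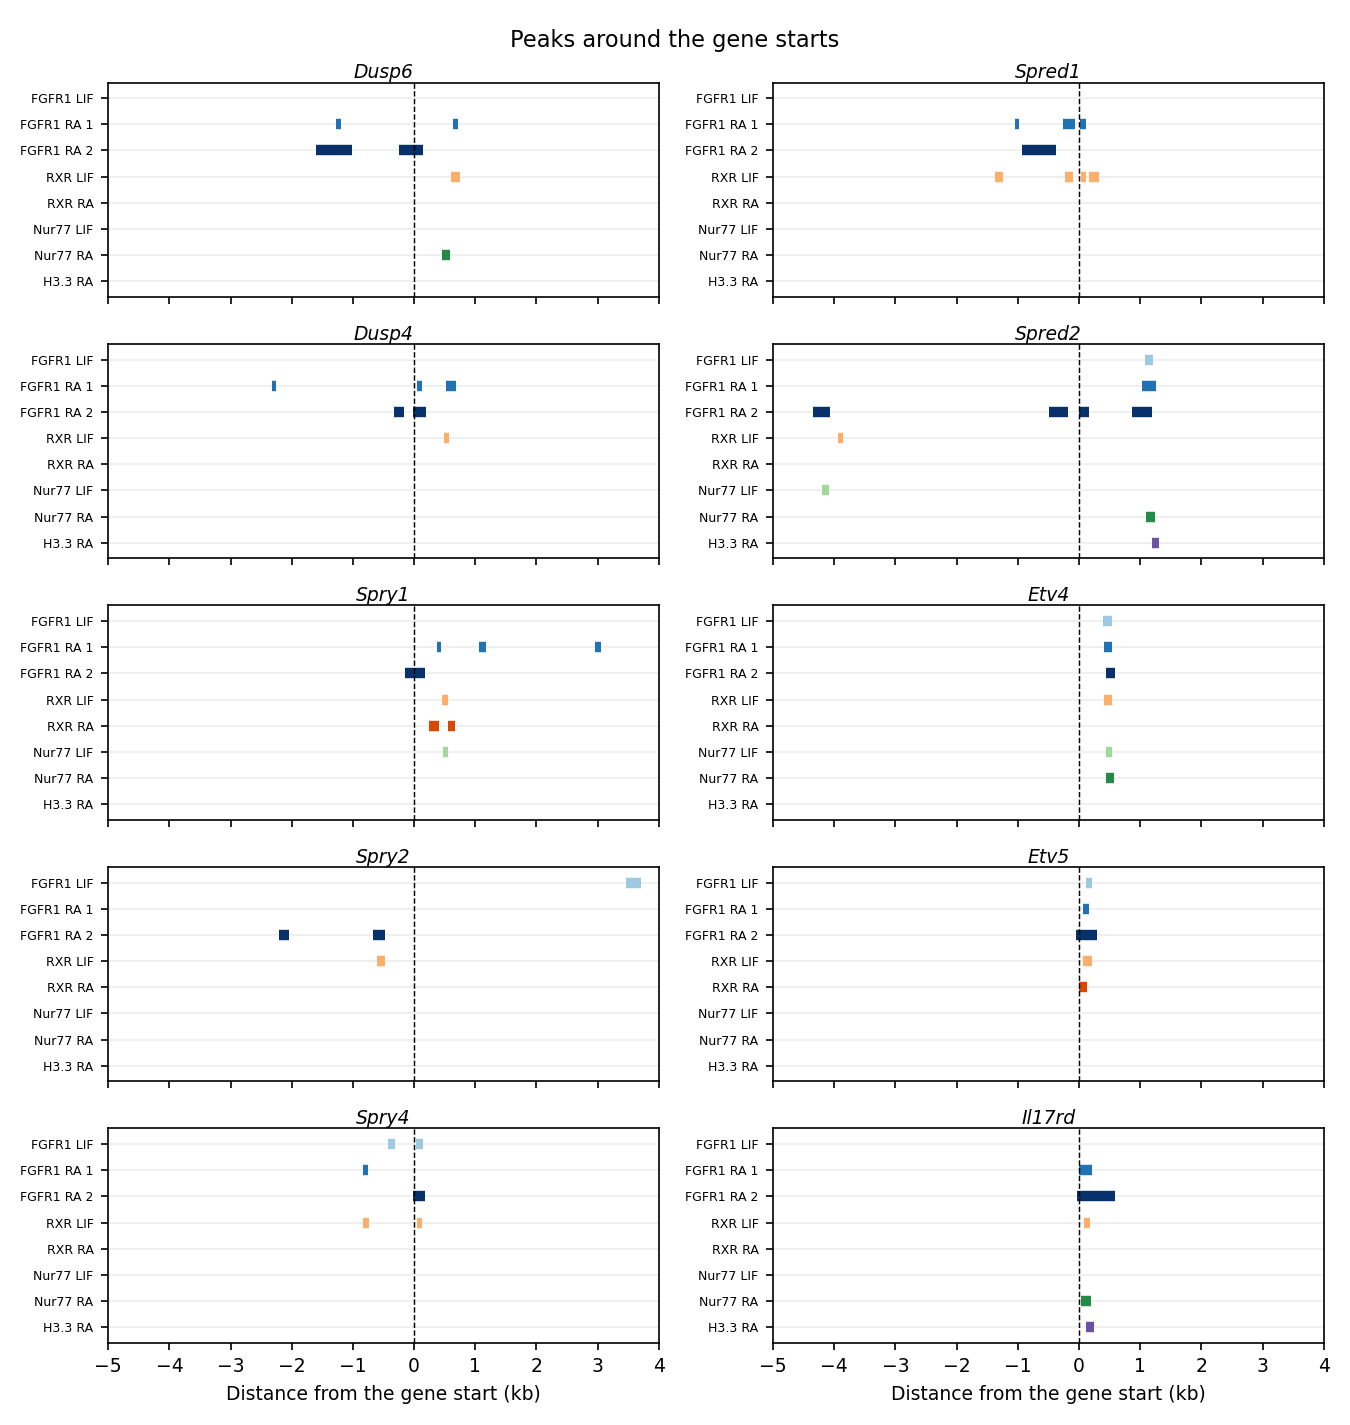
Peaks (bars, drawn to scale) in each library from 5 kb upstream to 4 kb downstream of the outermost start of each gene, in kb along the gene's strand, with the start as a dashed line. Peaks of FGFR1 RA replicate 2 lie on or next to most starts, and at Etv4, Etv5 and Il17rd the bars of 5 or 6 libraries stand above each other.

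Spred proteins hold down Ras by bringing the Ras inactivator neurofibromin to the membrane. Spred1 (ENSMUSG00000027351.14, chr2:117121374-117182279, plus strand) had 8 of its 9 peaks around its start, all of them FGFR1 in RA or RXR in LIF. Replicate 1 peaked 210 bp upstream (fold 9.26, −log10 p 17.1, 18 fragments), 1016 bp upstream (fold 7.31, −log10 p 12.2) and 77 bp downstream (fold 4.89, −log10 p 6.78). Replicate 2 had a single broad peak with its summit 697 bp upstream (fold 8.35, −log10 p 18.0), which lay between the upstream peaks of replicate 1 and touched neither. The peak at 1016 bp and that of replicate 2 each held an alternating tract, of 35 and 26 bp. RXR in LIF overlapped replicate 1 at 226 bp upstream (fold 4.53, −log10 p 6.21) and 59 bp downstream (fold 5.47, −log10 p 8.24), and it also peaked 1318 bp upstream (fold 5.74, −log10 p 8.98) and 228 bp downstream (fold 5.93, −log10 p 9.28). The remaining peak, of Nur77 in LIF, lay 21944 bp into the gene, in an intron (fold 6.28, −log10 p 9.0).

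Spred2 (ENSMUSG00000045671.17, chr11:19924375-20024026, plus strand), the longest of the genes, carried 21 peaks of 7 libraries. FGFR1 RA replicate 2 had 4 in the start window, 4193 bp upstream (fold 3.70, −log10 p 7.07), 402 bp upstream (fold 5.16, −log10 p 15.4), 121 bp downstream (fold 4.62, −log10 p 12.8) and 1149 bp downstream in an intron (fold 4.44, −log10 p 10.8). The farthest of them overlapped a Nur77 peak from LIF, 4148 bp upstream (fold 5.48, −log10 p 8.25), and RXR in LIF stood nearby at 3920 bp (fold 5.04, −log10 p 8.15) without overlapping. The intron site gathered 5 libraries. Besides replicate 2, replicate 1 peaked there (fold 6.75, −log10 p 10.9), as did FGFR1 in LIF (fold 5.85, −log10 p 8.32), Nur77 in RA (fold 8.43, −log10 p 14.4) and H3.3 (fold 5.53, −log10 p 7.58). This site straddles the edge of the start window. The peak of replicate 1 reaches 29 bp into the window, whereas the peaks of FGFR1 in LIF, Nur77 in RA and H3.3 begin 16, 22 and 125 bp outside it and count as gene body. Spred2 is therefore counted among the genes with FGFR1 in RA and not in LIF through a site at which FGFR1 in LIF also had a peak. In the gene body, FGFR1 in LIF (−log10 p 7.75), replicate 1 (−log10 p 7.24) and Nur77 in RA (−log10 p 10.1) met in a coding exon, 96801 to 96823 bp from the start. Replicate 1 and Nur77 in LIF met in an intron, 38584 and 38599 bp from the start (−log10 p 11.6 and 7.36). The other body peaks, 3 of replicate 1, 1 of RXR in LIF and 2 of Nur77 in LIF, each stood alone.

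Etv4 and Etv5 are ETS transcription factors of the PEA3 group, induced by FGF and carriers of its transcriptional output. Etv4 (ENSMUSG00000017724.14, chr11:101769742-101785371, minus strand) had 1 site and no other peak. It lies in an intron, with summits 476 to 510 bp inside the outermost start and within 34 bp of the start of a shorter, noncoding transcript. In LIF it was strongest for FGFR1 (fold 9.35, −log10 p 17.3, 18 fragments), with RXR at a fold of 5.93 (−log10 p 10.7) and Nur77 at 5.54 (−log10 p 8.35). In RA the fold was 7.39 in FGFR1 replicate 1 (−log10 p 12.3), 5.07 in replicate 2 (−log10 p 9.20) and 5.92 for Nur77 (−log10 p 9.27). RXR in RA and H3.3 had no peak. FGFR1 thus had a higher fold and −log10 p here in LIF than in either RA replicate, although LIF had the lowest background per kb of the 3. All 6 peaks held an alternating tract of 35 bp, and with tract peaks set aside Etv4 had no peak in any library.

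Etv5 (ENSMUSG00000013089.15, chr16:22381309-22439719, minus strand) was the gene with peaks of all 8 libraries, at 2 main sites. The first, at the start, held FGFR1 in both states and RXR in both states. FGFR1 RA replicate 2 had the highest fold and −log10 p, 10.7 and 34.6, with its summit 140 bp past the start. It had 44 fragments over a background of 3.21. Replicate 1 had a fold of 7.57 (−log10 p 12.0), from 12 fragments over a background of 0.718. FGFR1 in LIF had a fold of 6.09 (−log10 p 8.74), RXR in LIF 4.70 (−log10 p 6.48) and RXR in RA 6.71 (−log10 p 9.85). The RXR fold was thus higher in RA, the shallower library, with 9 fragments at the summit in each state. None of these peaks held a tract, and the part of the replicate 2 peak upstream of the start is in the capitals of the Etv5 promoter above.

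The second Etv5 site, in an intron 30186 to 30221 bp from the start, held peaks of 7 libraries, all but FGFR1 RA replicate 2. Its fold was 16.4 in FGFR1 RA replicate 1 (26 fragments, −log10 p 33.4, within the top 2.19% of that list by −log10 p), the highest fold at the 10 genes. It was 12.7 for H3.3 (−log10 p 22.7), 12.6 for Nur77 in RA (−log10 p 23.3), 10.1 for RXR in RA (−log10 p 16.9) and 9.78 for RXR in LIF (−log10 p 19.4). FGFR1 in LIF had a fold of 7.35 (−log10 p 11.6) and Nur77 in LIF 7.04 (−log10 p 11.4). All 7 peaks cover the 65 bp tract printed in capitals above, and their summits lay within 35 bp of each other. For FGFR1 and Nur77 the fold was higher in RA than in LIF where a peak was called, but the missing peak in replicate 2 leaves the FGFR1 difference without a replicate. Etv5 also held single peaks of replicate 1 at 7571 and 44497 bp, of replicate 2 at 10553 bp and of Nur77 in LIF at 40039 bp.

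Il17rd, the transmembrane inhibitor Sef (ENSMUSG00000040717.6, chr14:27038941-27107286, plus strand), was the only one of the genes with H3.3 at its start. In RA the start site held FGFR1 replicate 1 (fold 11.2, −log10 p 20.4), FGFR1 replicate 2 (fold 9.97, −log10 p 27.7), Nur77 (fold 8.46, −log10 p 13.5) and H3.3 (fold 6.09, −log10 p 8.76). RXR in LIF had a fold of 7.32 (−log10 p 12.6), the highest of its 14 start-window peaks. The 5 summits lay 68 to 173 bp past the start and had 71 bp in common, and neither FGFR1 nor Nur77 had a peak there in LIF. FGFR1 RA replicate 1 had peaks alone further into the gene at 27613 bp (−log10 p 11.9), 48812 bp (−log10 p 9.82) and 60751 bp (−log10 p 9.53), the first 2 of them within 1 kb of starts of shorter transcripts.

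**Figure D5:**
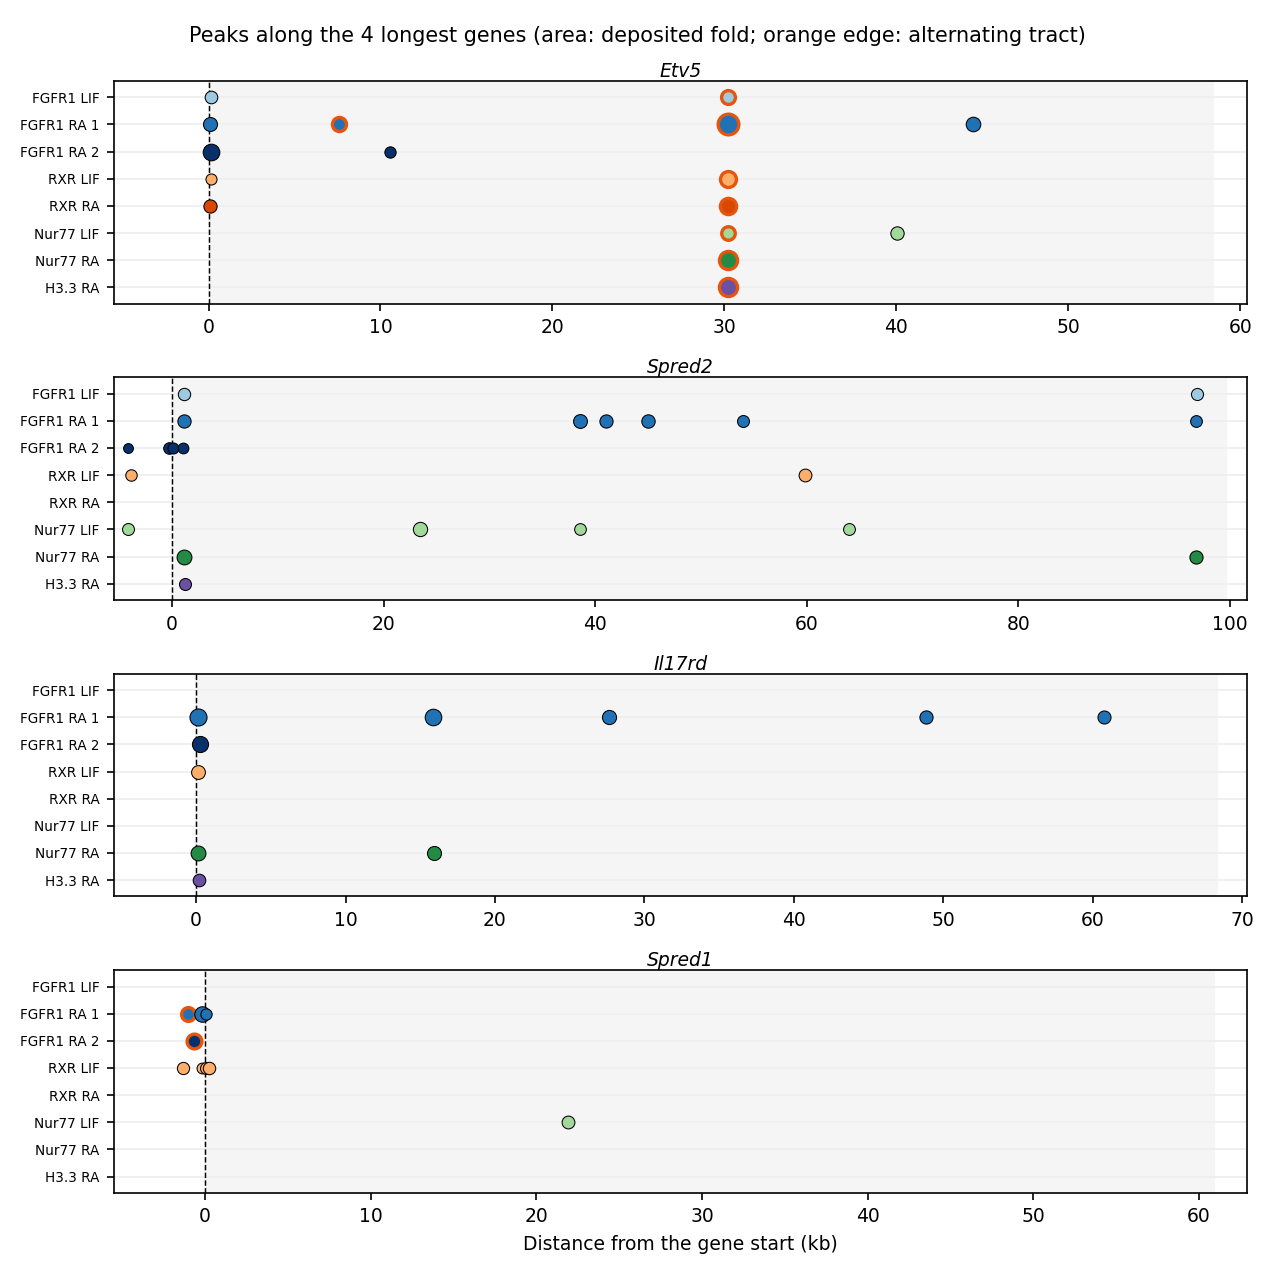
Peak summits in each library along the 4 longest genes, in kb from the gene start, with the gene shaded, the area of each point in proportion to the deposited fold and an orange edge for an alternating tract. In Etv5 the points of 7 libraries line up about 30 kb from the start, and in Spred2 the points of 3 libraries meet near the far end of the gene.

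Alternating purine-pyrimidine tracts of at least 20 bp were present in 16 of the 96 peaks, at 5 sites in Spred1, Etv4 and Etv5. At the Spred2 intron site near the start, peaks of FGFR1 in LIF, both FGFR1 RA replicates and Nur77 in RA held a run of 19 bp. That is just under the limit, so they do not count as tract peaks. Across whole lists the share of peaks with such a tract was 1.26% in FGFR1 RA replicate 2, 21.1% in replicate 1 and 24.9% in RXR from LIF, and between 35.5% and 51.7% in the other 5 libraries. The share was highest in FGFR1 from LIF. In start windows, setting tract peaks aside removed Etv4 from each of its libraries and Spred1 from FGFR1 RA replicate 2. It left FGFR1 with start-window peaks at 2 genes in LIF and 8 in each RA replicate. The share of all coding genes left with a peak was not counted, so these counts have no share beside them. With gene bodies included, Etv5 was also lost from Nur77 in RA and from H3.3.

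Sequence words bound by transcription factors were sought on either strand in the 100 bp around each summit. The ETS word CCGGAAGT, the cAMP response element TGACGTCA, the AP-1 word TGACTCA, the Nur77 element AAAGGTCA (NBRE) and the SRF CArG box were in none of the 96 peaks. Among all peaks of a list they occur in 0.344% to 2.50%, 0.464% to 0.916%, 0.574% to 1.24%, 0.0564% to 0.163% and 0.0423% to 0.163%, in that order. The nuclear receptor word AGGTCA, which is contained in the NBRE, was in 3 peaks, all at the Etv5 intron site, against 2.85% to 5.09% of all peaks. The E-box CACGTG was in 7 peaks, against 3.29% to 8.08%, and 4 of them were also at the Etv5 intron site, where it follows the tract. The NRF1 word GCATGCGC was in 3, against 1.54% to 3.08%, namely FGFR1 RA replicate 1 at the Il17rd start and single intron peaks of FGFR1 RA replicate 1 and RXR in LIF in Spred2. In all, 83 of the 96 peaks held none of the words. In the RefSeq promoters, which reach from 250 bp upstream to 50 bp downstream of a start, Spry2 held AGGTCA, as did 16.3% of all 32851 promoters, and Il17rd held the NRF1 word, as did 2.71%. The ETS word is in 3.89% of all promoters, CRE in 1.79%, AP-1 in 5.20%, NBRE in 1.51%, the E-box in 7.15% and CArG in 1.63%, and none of these was found in the promoters of the 7 genes with an entry. A matching word is a description of the letters and not a site.

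The rest of the pathway was counted over a list of 47 other genes, from ligands to ERK effectors and further inhibitors. FGFR1 had start-window peaks at 15 of them in LIF (31.9%), at 41 in RA replicate 1 (87.2%) and at 35 in replicate 2 (74.5%), with 30 in both (63.8%). The 47 genes included 31 with RXR in LIF (66.0%) but 12 with RXR in RA (25.5%), 16 with Nur77 in LIF (34.0%), 15 with Nur77 in RA (31.9%) and 14 with H3.3 (29.8%). These 3 libraries, FGFR1 in RA replicates 1 and 2 and RXR in LIF, also had the highest shares over all coding genes (56.0%, 51.5% and 46.4%), and the shares of the 47 genes with RXR or Nur77 in RA were near those of all coding genes (26.2% and 31.0%). By role, FGFR1 in RA replicates 1 and 2 had peaks at 7 and 3 of 8 ligands and receptors, 7 and 7 of 8 adaptors, 10 and 8 of 11 genes of the Ras-to-ERK cascade, 8 and 8 of 10 effectors and 9 and 9 of 10 other inhibitors. In LIF, FGFR1 was at 2, 5, 5, 1 and 2 genes of these groups. Over all coding genes the share was 19.7% for FGFR1 in LIF, 42.6% for both FGFR1 RA replicates, 29.8% for Nur77 in LIF and 18.0% for H3.3. RXR in RA was at none of the 10 effectors and in LIF at 4, beside 26.2% and 46.4% of all coding genes. Its background was 1.87 fragments per kb in RA and 7.09 in LIF, and the 47 genes were not counted at equal depth.

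The pattern of start-window peaks over the 8 libraries was compared with that of these 47 genes. Dusp4 and Spred1 had the same pattern as each other, FGFR1 in both RA replicates and RXR in LIF only, shared by 3.32% of coding genes and, within the list, by the immediate early genes Egr1 and Fos. Dusp6 shared its pattern with Dusp7, another ERK phosphatase, and Rasa1, a Ras inactivator, and with 1.61% of coding genes. Spry4 shared its pattern with Gab1 (an adaptor), Map2k2 (a MEK) and Ptpn11 (a phosphatase that relays receptor signals), and with 1.03% of coding genes. Spred2 matched Rps6ka1, a kinase under ERK, and Spry2 matched Nras, and their patterns were those of 1.80% and 1.54% of coding genes. A single match among 47 genes is near such shares. Spry1, Etv4, Etv5 and Il17rd matched no gene of the list, and the patterns of Etv5 and Il17rd were the rarest, at 0.547% and 0.569% of coding genes.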

How the data were processed

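Peak lists of 8 ChIP-seq libraries were analysed. The authors aligned reads to mm10 with Bowtie 1.0, keeping reads with 1 place in the genome, and ran MACS2 on each library by itself. The limit for a peak was a p of 1e-05, and no control library appears in the study's commands. Each deposited list gives, per peak, a fold ratio of summit to background, a −log10 p and a −log10 q of that contrast (p-value and q-value on a log10 scale), and a score, which was not used here. The fold and −log10 p are given as the authors deposited them.

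Here, peaks were assigned to genes of GENCODE M21 on GRCm38, the same assembly as mm10, while the study used UCSC known genes. An overlap of at least 1 bp counted, and the start window took precedence over the gene body. Each −log10 p and fold were solved together for whole fragments at the summit under MACS2's Poisson tail, within 0.002 of the deposited −log10 p, which succeeded for 100% of peaks. The background density, 1.27 to 7.09 fragments per kb, is the measure of depth. Depth is thus inferred, and fragments in peaks are included in it. Intervals are exact Clopper-Pearson at 95%. Scripts ran in Python 3.11.15 with numpy 2.4.6, scipy 1.17.1, pandas 2.3.3 and matplotlib 3.10.9, and were tested on simulated data.

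Groups came from the sample titles, and replicate 2 of FGFR1 in RA is the library titled as a repeat experiment. All 10 genes are named. Another gene is named where its start lies within 1 kb of a member's peak, or where it belongs to the pathway list and has the same pattern of start-window peaks as a member, and otherwise by its role in the list. Of the 48 genes first listed, Spry3 was not found under that symbol. The genes, lists and words were chosen with earlier results of these data known. A site within Il17rd is not reported here. No p-value was computed, since 6 of 7 groups had 1 library. Alternatives were a −log10 p of at least 10, an equal number of 10634 peaks, starts of protein-coding transcripts only, an overlap of 20 bp, no tract peaks, a proximal window of 1 kb, stricter rules for shared peaks, and each FGFR1 RA library left out. An equal depth per factor was added after seeing the data. Fragments and background of each peak were scaled to the library of that factor with the lowest background within 1 fragment length. For FGFR1 that was RA replicate 1 (0.3 fragments), although LIF was the shallowest per kb. Peaks whose scaled p still passed the limit were kept.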

Additional observations from a re-analysis of the deposited data

Results flagged for a closer look

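The count of genes with a start-window peak moved in opposite directions between LIF and RA for different factors. For FGFR1 it was higher in RA by 6 genes in replicate 1 and by 7 genes in replicate 2, and for RXR the change from LIF to RA was -8 genes, while for Nur77 it was 0. Over all coding genes the share with such a peak was 19.7% for FGFR1 in LIF and 56.0% and 51.5% in RA. It was 46.4% for RXR in LIF and 26.2% in RA, and 29.8% and 31.0% for Nur77. The shares of FGFR1 and RXR thus moved in the same directions as the counts. The difference between the factors was not tested. The background was 1.87 fragments per kb for RXR in RA against 7.09 in LIF. With libraries of a factor scaled to an equal background within 1 fragment length, RXR had 2 genes in each state. FGFR1 then had 3 in LIF against 9 and 8 in RA. After the same scaling 28.0% of coding genes kept an RXR peak in LIF and 26.2% in RA. For FGFR1 the shares were 19.7% in LIF and 56.0% and 42.8% in RA. That scaling left FGFR1 in LIF (factor 0.971) and RA replicate 1 (factor 1.0) nearly unchanged. Per kb the FGFR1 background was 2.71 in LIF and 4.16 and 6.78 in RA. Neither FGFR1 nor RXR was tested at an equal background per kb.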

How the results depend on the processing

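Restricted to a −log10 p of at least 10, the genes with a start-window peak fell to 2 for RXR in LIF, 0 for RXR in RA, 0 for Nur77 in LIF, 1 for Nur77 in RA and 0 for H3.3. With gene bodies included they were then 4, 1, 2, 3 and 1. The share of all coding genes with a peak was not counted at this limit, so these counts have no share beside them. With 10634 peaks in every list the start-window counts were 2 in FGFR1 RA replicate 1 and 1 for RXR in LIF. They were 0 for Nur77 in LIF and 1 for Nur77 in RA. In these lists 20.7%, 17.1%, 13.1% and 11.4% of all coding genes kept such a peak, in that order. With gene bodies the counts were 3, 3, 2 and 3. No such share was counted for gene bodies or for shared peaks at this setting. The genes at which the FGFR1 RA lists shared a peak then fell from 6 to 1, and the RA mean exceeded LIF by 2.5 genes in place of 6.5. At equal depth per factor, taken as the background within 1 fragment length and chosen after seeing the data, that excess was 5.5 genes. RXR in LIF then had 2 genes, beside 28.0% of all coding genes. Without tract peaks Nur77 in RA had 3 genes with gene bodies included, in place of 5. The share of all coding genes was not counted without tract peaks. Leaving out either FGFR1 RA library gave an excess over LIF of 6 to 7 genes. The other 89 values of these results stayed within 1.5 times their reported value, or, for the excess over LIF, within the spread of the replicates, as did 51 of 70 counts of libraries per gene. The causes were not tested. No paired analysis was possible because the labels tie no LIF library to an RA library and no test was made. Depth limits a missing peak in RXR from RA and in H3.3 the most.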
